A study of Homo sapiens with 6 samples.

Results

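The trefoil factors TFF1, TFF2 and TFF3, the REG family lectins REG1A, REG1B, REG3A and REG4, the disulfide isomerases AGR2 and AGR3, and the trypsin inhibitor SPINK1 are small proteins of the secretory pathway of epithelial cells. These 10 genes, out of 36337 gene names on the array, were taken by their symbols, and every probe that carries one of the symbols was kept, which gave 13 of 50599 probes. They were chosen because of their values in the comparison described here. The differences between the groups are therefore given as a description of these tumors, with no p for any member, and counts of members called are set beside the same count over all probes without being read further.

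BxPC-3 is a cell line from a human pancreatic adenocarcinoma, and it was grown under the skin of nude mice until the tumors reached 150 mm3. Mice of the DFX group then received deferasirox (DFX), an oral iron chelator, in saline at 200 mg/kg by gavage, 3 times per week for 21 days, and control mice received the vehicle. By the study's account, 3 tumors of each of these groups were picked at random for the arrays. Female BALB/c nu/nu mice were used, so that host RNA from animals without T cells can be present in the excised tumors. Total RNA of each of the 6 tumors was labeled with Cy3 and hybridized to a one-color human array, 1 tumor per array, and all tumors came from 1 cell line.

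Trefoil factors are compact peptides held by disulfide bonds that mucus-secreting cells of the stomach and intestine release together with mucins, and they are known for their part in repair of the epithelial surface. REG proteins are C-type lectins made by the pancreas and the gut, where several of them rise in inflammation and regeneration. AGR2 and AGR3 belong to the protein disulfide isomerases of the endoplasmic reticulum, in which mucins and other cysteine-rich proteins are folded, and SPINK1 is the pancreatic secretory inhibitor that protects the gland from its own trypsin.

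REG4, SPINK1 and REG1A were the members with the largest differences, and their log2 means in the DFX-treated tumors lay 3.64, 2.18 and 1.89 above those of the control tumors. The control means of REG4 and REG1A each include 1 array on which the probe was not well above background, so no fold is given for them. TFF1 and TFF2 were 1.42-fold and 1.72-fold higher, without overlap between the groups. TFF3, AGR2 and AGR3 overlapped between the groups. All of these differences were smaller without 1 tumor, control replicate 3, which had the lowest value of all 6 arrays on 10 of the 11 member probes that passed the detection filter. The difference of each tested member is therefore also given without that tumor, from the values normalized over all 6 arrays.

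The sequences below show what the array read for the trefoil and AGR genes, which were well above background on every array. TFF3 is shown by 1 of its probes. Each is the 60-base probe printed on the array, in the sense of the mRNA. The capitals in TFF2 and TFF3 mark the stretch in which these trefoil probes resemble each other most, with 19 identical bases over 24 aligned positions.
TFF1: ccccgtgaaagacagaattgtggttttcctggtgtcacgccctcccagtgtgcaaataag
TFF2: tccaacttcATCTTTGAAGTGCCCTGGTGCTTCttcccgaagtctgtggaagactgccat
TFF3: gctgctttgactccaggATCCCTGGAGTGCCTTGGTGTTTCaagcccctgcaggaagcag
AGR2: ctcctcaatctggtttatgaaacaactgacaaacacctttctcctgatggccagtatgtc
AGR3: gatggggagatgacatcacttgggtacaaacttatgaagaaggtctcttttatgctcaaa

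By the annotation of the array, on hg19, the 3 trefoil genes lie side by side on the minus strand of chromosome 21. The TFF1 probe is at chr21:43783440-43783499 and the TFF2 probe at chr21:43766648-43767646, a span of 999 bases for a 60-base probe, so that it crosses an intron. The 3 TFF3 probes lie between 43731777 and 43735590, and the one printed is at chr21:43733595-43733654. The AGR2 probe, at chr7:16837274-16839382, also crosses an intron, and the AGR3 probe is at chr7:16913408-16913467. The REG1B, REG1A and REG3A probes stand on chromosome 2 at 79312175, 79350451 and 79384308, those of REG4 on chromosome 1 at 120337140 and 120351407, and that of SPINK1 on chromosome 5 from 147204211 to 147207585.

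Probes of gene families can read each other's transcripts. Those of REG1A and REG1B, close paralogs, were the most alike among the members, with 41 identical bases over 56 aligned positions and no more than 7 in a row, and shared signal between them was not tested. No member probe shared more than 16 bases in a row with the probe of any other gene.

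The next sequences are those that RefSeq gives before the starts of REG1A, REG4 and SPINK1 on GRCh38.p14, shown because these genes had the largest differences. Each has 250 bases, reads 5′ to 3′ along the gene and ends at the base before the start. Capitals mark matches on either strand to 6 short motifs. For the core bound by hypoxia-inducible factors the letters were ACGTG. For the paired half-sites of STAT proteins the search used TTCNNNGAA. The letters for forkhead factors, which include the FOXA family, were TGTTTNC. The factors of the GATA family were searched as GATAAG. For the intestinal homeobox factors of the CDX family the letters were CATAAA. The TATA box, which places the start of transcription, was searched as TATAAA, and it was added after the files had been seen.
REG1A, chr2:79120238-79120487, plus strand: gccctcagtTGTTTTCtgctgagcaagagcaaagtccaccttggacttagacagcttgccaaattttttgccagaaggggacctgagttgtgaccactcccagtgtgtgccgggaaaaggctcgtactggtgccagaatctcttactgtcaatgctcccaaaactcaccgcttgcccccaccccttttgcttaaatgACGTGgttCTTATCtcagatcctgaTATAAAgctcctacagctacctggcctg
REG4, chr1:119811461-119811710, minus strand: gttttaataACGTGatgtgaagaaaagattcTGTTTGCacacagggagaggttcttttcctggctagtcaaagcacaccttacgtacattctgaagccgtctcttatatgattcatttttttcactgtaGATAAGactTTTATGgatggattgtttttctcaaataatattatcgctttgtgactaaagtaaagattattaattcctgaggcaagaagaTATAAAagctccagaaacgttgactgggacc
SPINK1, chr5:147831672-147831921, minus strand: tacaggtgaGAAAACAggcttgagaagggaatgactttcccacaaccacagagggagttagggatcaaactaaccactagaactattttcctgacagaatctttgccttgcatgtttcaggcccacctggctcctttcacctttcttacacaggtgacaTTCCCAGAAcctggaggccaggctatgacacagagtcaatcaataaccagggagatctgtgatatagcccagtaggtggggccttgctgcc

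REG4 held 5 of the 6 motifs in this window: the GATA and CDX letters stood close together, their first bases 121 and 112 bases before the start, and the TATA box 31 to 26 bases before it. REG1A held 4, with the hypoxia core and the GATA letters 53 to 49 and 45 to 40 bases before the start. SPINK1 held a STAT match 91 to 83 bases before its start and a forkhead match, and no TATA box letters. Over the 35116 promoters of this length, the hypoxia core was in 18.5%, the STAT letters in 6.57%, the forkhead letters in 15.5%, the GATA letters in 5.65%, the CDX letters in 9.64% and the TATA box in 10.72%.

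**Figure D1:**
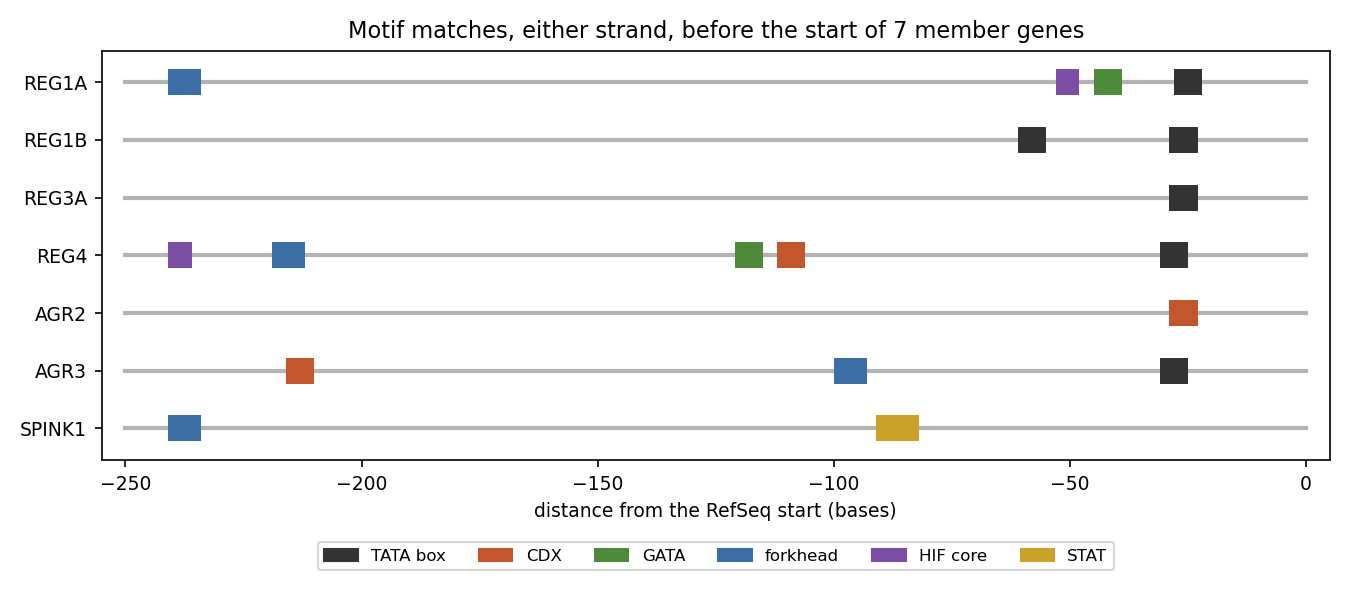
Matches to the 6 motifs in the 250 bases before the RefSeq start of 7 member genes, with the distance from the start in bases on the horizontal axis and 1 line per gene. A TATA box match lies within 31 bases of the start in REG1A, REG1B, REG3A, REG4 and AGR3, and AGR2 has a CDX match from 29 to 24 bases before its start.

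Of the 10 genes, 8 passed the detection filter, a p-value under 0.05 against background on all 6 arrays, with 11 probes in all. REG1B was detected on 2 arrays and REG3A on 3, and these genes were not tested. The flag for spots well above background was set on every array for 8 probes of 6 genes: TFF1, TFF2, the 3 TFF3 probes, AGR2, AGR3 and SPINK1. REG1A lacked it on control replicate 1, and both REG4 probes lacked it on control replicate 3. Values are log2 intensities after quantile normalization of the 6 arrays, a step that gives each array the same distribution, and a level of 1 probe cannot be set against that of another.

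Across the series, the share of probes well above background was 50.3% on DFX replicate 2 and 53.9% to 56.5% on the other arrays, with no saturated spot. Any pair of arrays correlated at 0.980 to 0.990. All arrays shared 1 slide, where row 1 held the controls and row 2 the treated tumors, so that row and treatment cannot be told apart. With limma and an unadjusted p under 0.05, 2675 of 31807 tested probes differed between the groups, and none did after Benjamini-Hochberg adjustment, where the lowest adjusted p was 0.0675. Control replicate 3 was lower than both other controls on 35.4% of the tested probes.

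TFF1, the trefoil peptide of the gastric surface mucous cell, had log2 intensities of 13.76, 13.99 and 13.25 in control replicates 1, 2 and 3 and of 14.33, 14.18 and 14.00 in DFX replicates 1, 2 and 3. The lowest DFX-treated tumor and the highest control tumor nearly touched, and the groups did not overlap. The means were 13.67 ± 0.38 and 14.17 ± 0.17 (SD, n = 3), a log2 difference of 0.50 with a standard error of 0.21. Without control replicate 3 it was 0.30. In bulk tumor RNA, fewer cells of a type and less RNA per cell cannot be told apart, here or for any member below.

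TFF2, the trefoil peptide of mucous neck and gland cells, read 14.12, 14.31 and 13.04 in the control tumors against 14.54, 14.68 and 14.60 in the DFX-treated tumors. All 3 DFX-treated tumors stood above every control tumor, and they differed from each other by only 0.14. The means of 13.82 ± 0.68 and 14.61 ± 0.07 differed by 0.78 with a standard error of 0.34, and by 0.39 without control replicate 3.

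TFF3, the trefoil peptide of intestinal goblet cells, had 3 probes. The brightest read 17.52, 17.23 and 15.20 in the control tumors against 17.57, 17.29 and 17.52 in the DFX-treated tumors. Control replicate 3 stood alone here, and the other 5 tumors lay within a narrow band. The second probe gave the same picture, with 15.31, 15.01 and 12.71 against 15.38, 15.07 and 15.24, and the third probe read 11.92, 12.33 and 10.62 against 12.01, 12.08 and 12.36.

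The log2 differences of the 3 TFF3 probes were 0.81, 0.89 and 0.53, with standard errors of 0.60, 0.68 and 0.44. Without control replicate 3 they fell to 0.083, 0.074 and 0.025. The first 2 probes followed each other over the 6 arrays with r = 0.9995, and the third followed them with r = 0.93. Control replicate 3, the lowest tumor on each probe, is among these points. Among the other tumors the third probe gave another order. Control replicate 2 was the lowest of them on the brightest probe, at 17.23, and on the third, at 12.33, close to the highest, 12.36. The groups overlapped on each probe.

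**Figure D2:**
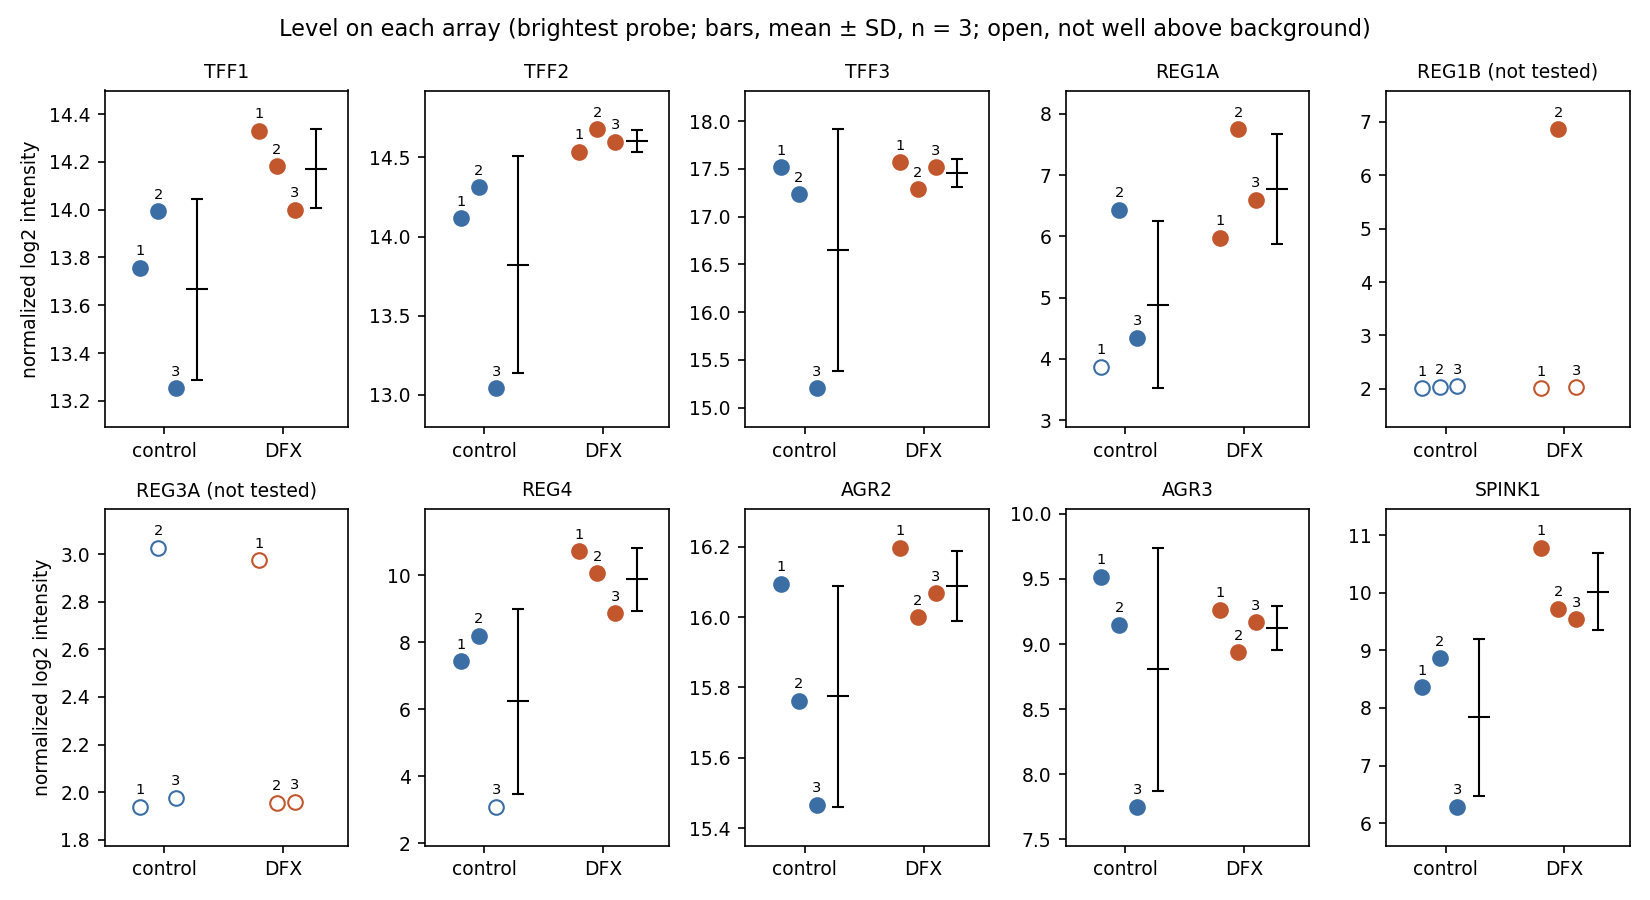
Normalized log2 intensity of the 10 genes on each array, with the replicate number over each point, the control tumors at left in blue and the DFX-treated tumors at right in orange; each panel has its own axis range, filled points were well above background, and bars give mean ± SD (n = 3) for the tested genes. Control replicate 3 is the lowest point for every tested gene except REG1A, and the groups do not overlap for TFF1, TFF2, REG4 and SPINK1.

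REG4, a lectin of intestinal secretory cells that is found in gastrointestinal tumors, had 2 probes. The brighter read 7.43, 8.19 and 3.09 in the control tumors against 10.71, 10.06 and 8.86 in the DFX-treated tumors. The dimmer read 5.27, 5.77 and 2.13 against 8.15, 7.31 and 5.96. On both probes every DFX-treated tumor stood above every control tumor, and control replicate 3, where REG4 was not well above background, stood far below the rest.

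The REG4 means were 6.24 ± 2.75 and 9.88 ± 0.94 on the brighter probe, a log2 difference of 3.64 with a standard error of 1.37. On the dimmer probe the difference was 2.75 with a standard error of 1.07. Both control means include control replicate 3, where the probes were not well above background, and on the brighter probe the difference was 2.38 with normexp background correction and 2.29 on the raw mean signal. Without control replicate 3 the differences were 2.07 and 1.62. The probes followed each other with r = 0.99 over the 6 arrays, while the sizes of their differences did not match.

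REG1A, the regenerating protein of the exocrine pancreas, read 3.87, 6.44 and 4.35 in the control tumors against 5.98, 7.75 and 6.60 in the DFX-treated tumors. Replicate 2 was the highest of each group, and control replicate 2 lay above DFX replicate 1, so the groups overlapped. The means of 4.88 ± 1.36 and 6.78 ± 0.90 differed by 1.89 with a standard error of 0.77. Among the tested members, REG1A alone was not lowest in control replicate 3, and its difference without that tumor was 1.62. The size changed with the signal used, to 0.84 under normexp background correction and 0.71 on the raw mean signal. It also changed with the model, to 3.06 with the slide column as a block.

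REG1B, the close relative of REG1A, read 2.01, 2.04 and 2.05 in the control tumors against 2.01, 6.86 and 2.03 in the DFX-treated tumors. It was well above background in DFX replicate 2 only, the tumor with the highest REG1A value. REG3A, a lectin that binds bacterial cell walls, read 1.94, 3.03 and 1.98 against 2.97, 1.96 and 1.96 and was well above background on no array. No fold is given for either gene.

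AGR2, the isomerase that intestinal cells need to make gel-forming mucin, read 16.09, 15.76 and 15.47 in the control tumors against 16.20, 16.00 and 16.07 in the DFX-treated tumors. Control replicate 1 lay among the DFX-treated tumors, and the other controls lay below them. The means of 15.77 ± 0.31 and 16.09 ± 0.10 differed by 0.31 with a standard error of 0.18, the smallest difference among the tested members, and by 0.16 without control replicate 3.

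AGR3, the neighbor of AGR2 on chromosome 7, read 9.52, 9.15 and 7.75 in the control tumors against 9.26, 8.94 and 9.17 in the DFX-treated tumors. The highest value of all was that of control replicate 1, and the lowest was that of control replicate 3. The log2 difference was 0.32 with a standard error of 0.46. Without control replicate 3 its sign turned, to -0.21.

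SPINK1, a Kazal-type inhibitor that many tumors also secrete, read 8.36, 8.86 and 6.29 in the control tumors against 10.78, 9.72 and 9.54 in the DFX-treated tumors. Every DFX-treated tumor was higher than every control tumor, and DFX replicate 1 was the highest. The means of 7.83 ± 1.37 and 10.01 ± 0.67 differed by 2.18 with a standard error of 0.72, and by 1.40 without control replicate 3.

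**Figure D3:**
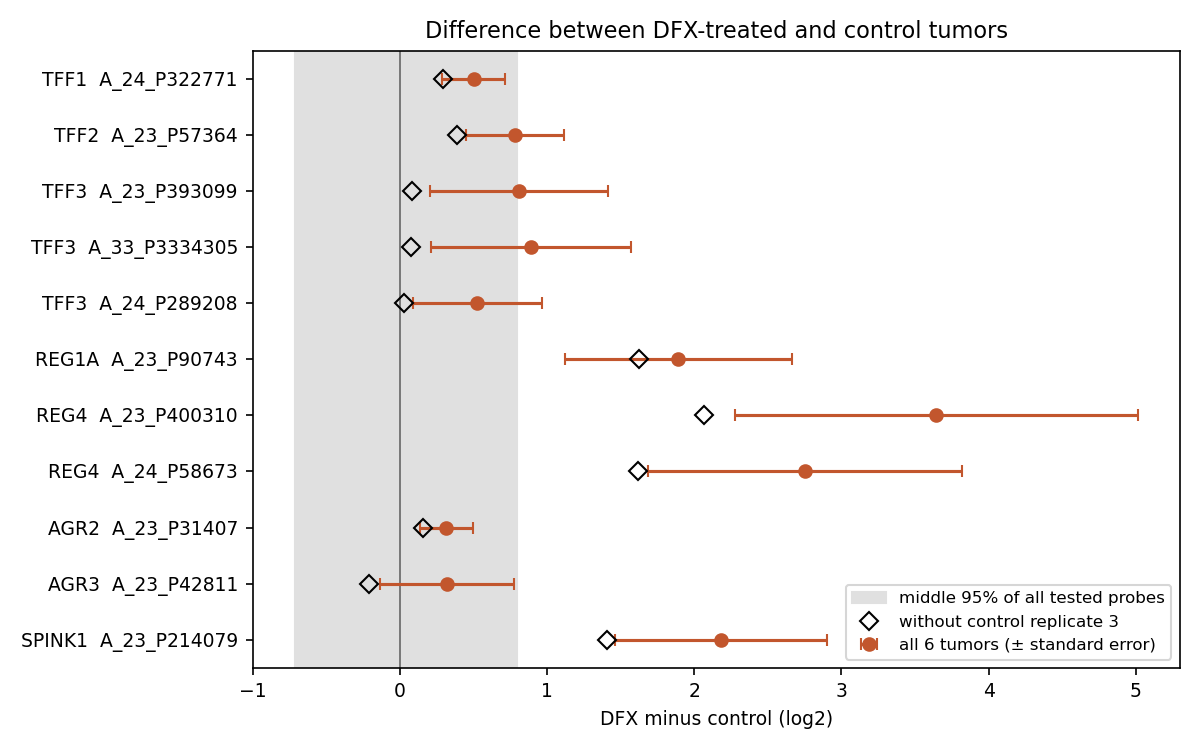
DFX minus control on the log2 scale for the 11 tested member probes; filled points with bars give the difference over all 6 tumors ± the limma standard error, open diamonds the difference without control replicate 3, and the gray band the middle 95% of all tested probes, from -0.72 to 0.79. REG4, SPINK1 and REG1A lie outside the band with either set of tumors, whereas the diamonds of TFF3 lie near 0 and that of AGR3 lies below 0.

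All 11 member probes had a positive difference, with a median of 0.81, where the median of all tested probes was -0.02. Of these 11, 4 were called at an unadjusted p under 0.05, the REG1A probe, both REG4 probes and the SPINK1 probe, all of them higher in the DFX-treated tumors, against a background of 8.41% of all tested probes called, 3.46% higher and 4.95% lower. In 5 probes of 4 genes (TFF1, TFF2, REG4 and SPINK1) all DFX-treated tumors lay above all control tumors, against a background of 6.34%. No member lay below without overlap, where 9.15% of all probes did. Since the members were chosen on this contrast, nothing is read from these counts. The number of member probes called ranged from 1 to 6 when 1 tumor was left out: only REG1A was called without DFX replicate 1, only SPINK1 without DFX replicate 2, and the dimmer REG4 probe and SPINK1 without DFX replicate 3. Without control replicate 1 the calls were AGR2, the brighter REG4 probe and SPINK1, and without control replicate 3 they were TFF2, the brighter REG4 probe and SPINK1, so that REG1A and the dimmer REG4 probe were lost in both. Without control replicate 2, TFF1 and TFF2 joined the 4 probes.

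Over most of these genes the control tumors varied more than the DFX-treated tumors. The median SD over the 11 probes was 1.26 among control tumors and 0.17 among DFX-treated tumors, whereas over all tested probes the medians were 0.20 and 0.18. REG4 had a control SD of 2.75 on its brighter probe, at the 99.97th percentile of all tested probes, and TFF3 and SPINK1 were at percentiles of 99.06 and 99.27 with 1.26 and 1.37. AGR2 and TFF1 were at percentiles of 71.4 and 78.3. The members with the largest differences also varied widely among the DFX-treated tumors, where REG1A, the REG4 probes and SPINK1 had SDs of 0.90, 0.94, 1.11 and 0.67, at percentiles of 96.5, 96.9, 98.2 and 92.8.

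Most of this spread came with control replicate 3. Its log2 intensity lay below the mean of the other controls by an offset of -4.72 and -3.39 for the REG4 probes, -2.32 for SPINK1, -2.17 for the brightest TFF3 probe and -1.59 for AGR3. The offset was smaller for TFF2 at -1.17, REG1A at -0.81, TFF1 at -0.62 and AGR2 at -0.46. Only 0.00629% of all tested probes had a lower offset than the brighter REG4 probe, and 11.97% had a lower one than AGR2.

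**Figure D4:**
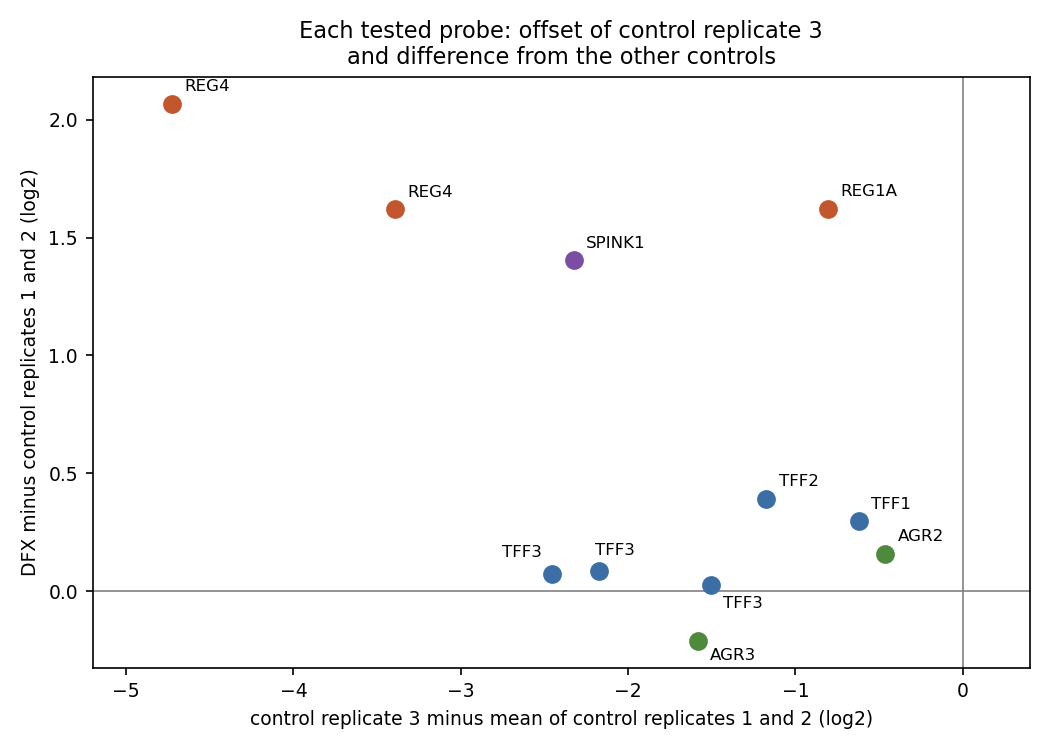
Each point is 1 tested member probe, with the offset of control replicate 3 from the mean of control replicates 1 and 2 (log2) on the horizontal axis and the difference between the DFX-treated tumors and those 2 controls (log2) on the vertical axis; trefoil probes are blue, REG probes orange, AGR probes green and SPINK1 purple. TFF3 and AGR3 have offsets of -1.51 to -2.45 with differences near 0, REG4 and SPINK1 have low offsets with differences of 1.40 to 2.07, and REG1A has a difference of 1.62 with an offset of -0.81.

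The tested members followed each other over the 6 tumors. Among the 8 genes there were 28 pairs, and Pearson's r was above 0 in all of them, with a median of 0.85. After the group means had been removed it was above 0 in 27 pairs, with a median of 0.86. The points of every pair are the same 6 arrays, and control replicate 3 is among them.

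Within the members, TFF1 and REG4 had r = 0.99, REG4 and SPINK1 0.98, and TFF1 and SPINK1 0.99. TFF3 and AGR3 had r = 0.97, and 0.99 once the group means were removed. REG1A followed the others least, with r = 0.21 for AGR3 and 0.27 for AGR2, and after the group means had been removed its r with AGR2 was -0.32.

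Over all genes, the patterns most like that of TFF1 among 24363 probes with that flag on all arrays were those of USP20, NFIC and HAUS6, with r of 0.997, 0.995 and 0.994 over 6 arrays. The patterns most like that of AGR2 were those of RAB37, C21orf88 and FAM174B, with r of 0.994, 0.992 and 0.991. For SPINK1 they were those of BC023640, HERC2 and C6orf89, with r of 0.996, 0.994 and 0.994. With 6 arrays and so many probes, values of this size are a description only. REG4 was not well above background on all arrays and had no such search.

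The mucins and other proteins that mucous cells release with trefoil factors were higher in part. Of 18 tested genes, 5 were called higher and 0 lower at an unadjusted p under 0.05, with a median log2 difference of 0.52, beside a background of 10.6% of 23810 gene names called, 4.36% higher and 6.30% lower, and a median over all genes of -0.01. MUC17, a membrane mucin of the intestinal surface, read 5.97, 7.92 and 4.61 in the control tumors against 9.38, 9.77 and 9.01 in the DFX-treated tumors. The groups were apart by 3.22 with a standard error of 0.81 (limma, adjusted p = 0.51), and by 2.42 without control replicate 3. It was called under all 16 alternatives run. DMBT1, a scavenger receptor protein of mucosal secretions that binds trefoil factors, read 9.05, 11.08 and 8.90 against 11.70, 12.46 and 11.37. It was higher by 2.17 with a standard error of 0.64 (limma, adjusted p = 0.53), called under 14 of 16 alternatives, and at 1.77 without control replicate 3, where it no longer passed.

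CTSE, the gastric protease cathepsin E, and RETNLB, a goblet cell peptide, were also called higher, by 1.04 and 0.93, and kept the call under 12 and 10 of 16 alternatives. Without control replicate 3 they were at 0.56 and 0.79, and RETNLB no longer passed. The fifth call, MUC2, the gel mucin of goblet cells, came from 1 of its dimmer probes at 0.62, while its brightest probe was at -0.18. The dimmer probe held its call under 9 of 16 alternatives and lost it without control replicate 3, at 0.42. MUC5AC, the gel mucin secreted with TFF1, did not pass. Its brightest probe read 9.997, 9.30 and 6.84 in the control tumors against 10.37, 9.96 and 9.56 in the DFX-treated tumors, so that control replicate 3 again lay far below the rest.

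Among receptors and binding partners of the members, 16 genes were tested, and 2 were called higher and 2 lower, with a median difference of 0.10, where the background was 4.36% higher and 6.30% lower. The higher ones were DMBT1 and MUC2, already named. LYPD3, a surface protein that binds AGR2, read 11.12, 10.93 and 11.09 on its brighter probe in the control tumors against 10.71, 10.71 and 10.69 in the DFX-treated tumors. Its groups did not overlap, and its 2 probes were lower, at -0.34 and -0.69 with standard errors of 0.10 and 0.15 (limma, adjusted p = 0.53 and 0.51). They were called under 15 and 16 of 16 alternatives.

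CXCR7, a chemokine receptor bound by trefoil factors, was lower at -0.71 with a standard error of 0.23 (limma, adjusted p = 0.55), and DFX replicate 3, at 13.82, lay much nearer the controls, at 14.00 to 14.04, than did the other treated tumors at 13.02 and 13.10. Its call held under 11 of 16 alternatives, and without control replicate 3 its difference of -0.70 no longer passed. CXCR4, the other chemokine receptor on the list, was at 0.50 with a standard error of 0.43, and EXTL3, which binds REG1A, was at 0.11 with a standard error of 0.11. Neither passed.

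SPINK4, a Kazal-type inhibitor of goblet cells related to SPINK1, was the 1 gene called of the 3 tested among the other SPINK and REG genes, while 9 were on the array. Of all gene names, 10.6% were called in at least 1 probe, and 4.36% of all gene names were called higher. It read 8.72, 9.17 and 8.13 in the control tumors against 11.17, 10.30 and 10.24 in the DFX-treated tumors. The groups were well apart, with a difference of 1.90 and a standard error of 0.36 (limma, adjusted p = 0.51), and without control replicate 3 it was 1.61. It was called under all 16 alternatives.

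The disulfide isomerases and oxidases of the endoplasmic reticulum, the family of AGR2 and AGR3, showed small differences. Of 18 genes, 2 were called higher and 1 lower, a share of 16.7% against 10.6% of all gene names, and the median difference was 0.05. PDIA5 was higher by 0.41 with a standard error of 0.15 (limma, adjusted p = 0.58), a call that held under 9 of 16 alternatives. TXNDC5 was called higher by 0.36 on a dimmer probe and stood at 0.21 on its brightest, and ERP29 was called lower at -0.39 on a dimmer probe and stood at -0.15 on its brightest.

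Of 23 tested transcription factors of secretory epithelium, 2 were called higher and 1 lower, with a median of 0.21. That share of 13.0% is near the 10.6% of all gene names called. CDX2, the homeobox factor of intestinal epithelium, read 7.78, 7.77 and 6.58 in the control tumors against 8.50, 8.65 and 8.48 in the DFX-treated tumors. Its groups did not overlap, its difference was 1.17 with a standard error of 0.34 (limma, adjusted p = 0.52), and without control replicate 3 it was 0.76, called there and under all 16 alternatives. GFI1, a transcriptional repressor in secretory lineages, was lower at -0.41 and called under 7 of 16, and the FOXA1 call rested on a dim probe that was well above background on no array, while its brightest probe was at 0.02.

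IL-6 and STAT3 response genes showed 1 call in each direction among 16 tested, and a median of 0.06. That share of 12.5% is near the background of 10.6%. IL22RA1, the epithelial receptor for interleukin-22, was higher by 0.35, and STAT3 was lower at -0.29 on its brighter probe and stood at -0.11 on the other. These calls held under 7 and 9 of 16 alternatives, and that of IL22RA1 was lost without control replicate 3.

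**Figure D5:**
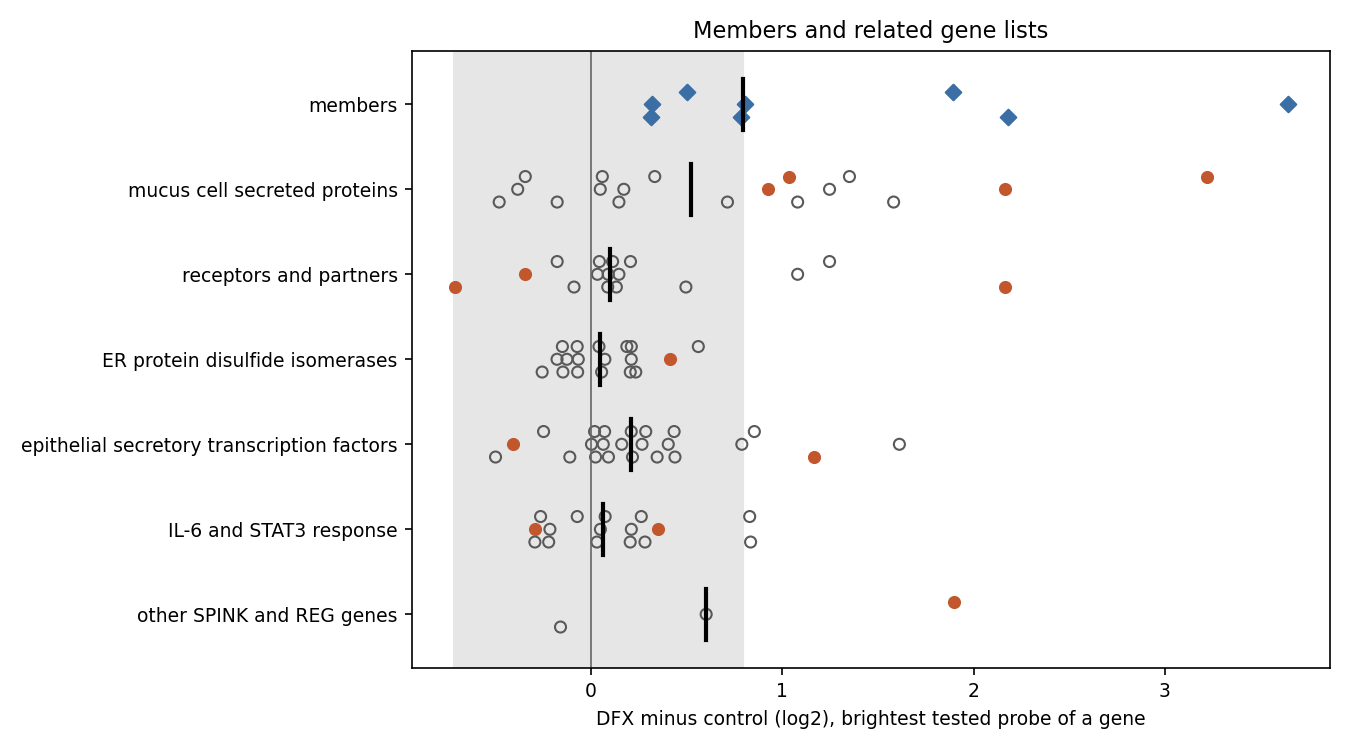
DFX minus control on the log2 scale for the brightest tested probe of each gene, with the members in the top line as diamonds and 1 line for each related gene list; in the lists, filled points had an unadjusted limma p under 0.05, open points did not, short black lines are medians, and the gray band is the middle 95% of all tested probes. The median was 0.80 for the 8 tested members, 0.52 for the mucus cell proteins and 0.05 to 0.21 for the receptor, isomerase, transcription factor and STAT3 lists, whereas the 3 other SPINK and REG genes had a median of 0.60.

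Markers of the cell types that make these factors were compared through the sum of their linear intensities on each array, and some of these genes also stand in the lists above. Each sum leans on the brightest probes of its list. KRT19 led the ductal list at a mean log2 level of 18.48, PSCA the gastric at 13.80 and HBA2 the red blood cell at 11.50. Beside the counts of called genes in all marker lists, 8.41% of all tested probes were called, 3.46% higher and 4.95% lower. Gastric mucous markers summed to 9579 in control replicate 3 and to 19427 and 25637 in the other controls, and to 26058 to 29125 in the DFX-treated tumors. Of the 10 genes on that list 7 were well above background on every array, GKN2 was so on none, and 2 of 9 tested genes, CTSE and VSIG1, were called higher. Enterocyte markers summed to 342 to 1158 in the control tumors, and to 1653 to 2652 in the DFX-treated tumors. Of 11 genes, 3 were well above background on every array, APOA1, VIL1 and KRT20, while LCT, FABP2 and APOB were so on none. Of 7 tested genes, 6 were called higher. Among those called, SI and ALPI were well above background in no control tumor, FABP1 in 1 and ANPEP in 2.

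Goblet markers overlapped between the groups, at 2576 to 7316 against 4390 to 6700, with 5 of 9 genes well above background throughout, ATOH1 on no array, and 2 of 8 tested genes called higher. The highest sum was that of control replicate 1. There ITLN1 read 11.17, against 6.97 and 3.64 in the other controls, and FCGBP 10.60, against 9.06 and 6.00. Pancreatic acinar markers overlapped too, at 18658 to 21760 against 19224 to 22578, and 2 of 12 tested genes were called lower. Of 21 genes on the array, 7 were well above background on every array, PRSS2, CTRB2 and CEL among them. On no array were 9 so, among them PNLIP, PNLIPRP2, CTRB1, GP2, SYCN, PTF1A and RBPJL. Paneth markers were well above background on no array for 4 of 4 genes. Markers of ductal epithelium were well above background on every array for 9 of 12 genes and summed to 627875 to 630160 against 642036 to 655906, with 3 of 11 tested genes called higher. Enteroendocrine and islet markers summed to 1410 to 1557 against 1084 to 1462, with 0 of 4 called at an unadjusted limma p under 0.05.

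Host cells here are mouse cells, whereas the array carries human probes. Signals of host and stromal markers can come from mouse RNA bound by human probes or from the tumor cells, and which was not tested. Red blood cell markers summed to 6762 to 8037 in the control tumors, and to 3134 to 3292 in the DFX-treated tumors, and 2 of 5 tested genes were called lower. Fibroblast markers summed to 12477 to 20230 against 11065 to 13814, and DCN and PDGFRA were called lower at -1.30 and -1.12 while LUM was called higher at 0.87. Endothelial markers summed to 496 to 950 against 583 to 620, and PECAM1, the 1 gene called of 4, was higher by 1.27 on its brightest probe, with a standard error of 0.19 (limma, adjusted p = 0.50), a call that held under 16 of 16 alternatives. Leukocyte markers summed to 2168 to 2542 against 2310 to 2656, with 0 of 7 called at that threshold. The part of these differences in the members' values was not tested.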

How the data were processed

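The authors deposited 1 scanner file per array, with intensity values on a linear scale for each spot (mean, background and background-subtracted processed signal), a p-value of each spot against its background, and flags. They also deposited a table of normalized intensity. Their processing notes name Agilent Feature Extraction 9.5.1.1, while the file headers name 10.7.1.1. Their methods give log2 transformation, quantile normalization and a detection filter, and name no test for the arrays.

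Here the processed signal of 58717 non-control spots was log2-transformed and quantile-normalized, 1398 outlier spot values were dropped, each probe's spots were averaged, and 31807 probes had a detection p-value under 0.05 on every array. Groups, from the sample titles, were compared over all of these with limma 3.58.1 in R 4.3.3 (prior degrees of freedom 2.04), with Benjamini-Hochberg adjustment. Standard errors and p-values rest on the spread among 3 tumors per group, which limma draws toward that of all tested probes. A standard error can therefore be smaller or larger than the SDs of its probe alone would give. The number of arrays limits their precision. The brightest tested probe stands for a gene. Over all gene names and in the related gene lists, a gene counted as called when any probe passed. In the marker lists only the brightest tested probe was counted. The limma step was tested on simulated data with 200 changed probes. The authors' values differed from those here by a median of 0.473%. Their table was used as an alternative only.

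The members and all gene lists were chosen with earlier results of these data known. Named genes are all members, up to 4 called genes of each list with the largest changes, markers, and the 3 patterns most like TFF1, AGR2 and SPINK1. The MUC5AC, CXCR4, EXTL3 values and the dimmer-probe calls beyond those were chosen after their values were seen. Pairs of probes were aligned locally. Promoters come from RefSeq (GRCh38.p14) and had entries for 7 of the 10 members, not for TFF1, TFF2 and TFF3. Protein sequences were not used here, and some marker genes are not reported here. Alternatives covered scaling, background correction, signal, filter, outlier flags, the authors' table, the test, blocks, the probe rule and each tumor left out. When a tumor was left out as an alternative, normalization, filter and fit were run anew. The calls, the ranges and the values of related genes without control replicate 3 come from those runs.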

Additional observations from a re-analysis of the deposited data

Results flagged for a closer look

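REG1B was left out of the comparison by the detection filter, yet its log2 intensity was 6.86 in DFX replicate 2, above the 2.01 to 2.05 of the control tumors, and that was the only array on which it was well above background.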

How the results depend on the processing

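The sign of the difference of the 8 tested genes turned in 1 of 128 values, that of AGR3 without control replicate 3. All moves were under the larger of the groups' SDs, which were wide for REG1A and REG4. With 3 tumors per group, leaving 1 out can hardly move a mean by a whole SD, so this measure says little about those runs. TFF3 stayed within it while falling from 0.81 to 0.083 without control replicate 3. The ranges were 0.29 to 0.67 for TFF1, 0.39 to 1.06 for TFF2, 0.083 to 1.23 for TFF3, 0.71 (raw mean signal) to 3.06 (slide column as a block) for REG1A, 2.06 to 4.62 for REG4, 0.16 to 0.48 for AGR2, -0.21 to 0.67 for AGR3 and 1.39 to 2.69 for SPINK1. Without a filter on dim probes 1 member probe was called, SPINK1. With 1 tumor left out, 1 to 6 member probes and 1952 to 2740 of all probes were called. All probes called numbered 1418 with the slide column as a block and 4927 by the methods' Kruskal-Wallis H test, whose approximate p falls under the threshold whenever 3 against 3 values do not overlap. The share of calls lower in DFX was 58.8%, and 42.6% under 75th percentile and 71.8% under median scaling, where the median of all probes was -0.10.

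Over all tested probes no pairing by replicate number was seen, as same-numbered tumors correlated at 0.027, 0.027 and 0.016 in their deviations. With a replicate block 5 member probes and 2419 of all probes were called. For REG1A, where replicate 2 was the highest of each group, the standard error was 0.23 with that block and 0.77 without. The isomerase list had 1 call under median scaling and the STAT3 list 1 under 75th percentile scaling. With 1 tumor left out, the lists had 3 to 5 calls (mucus cell), 3 to 4 (receptors), 0 to 4 (isomerases), 1 to 6 (transcription factors), 0 to 1 (STAT3) and 1 to 2 (other SPINK and REG). REG3A was too near background on every array for a difference to be detectable, and so was REG1B on all but DFX replicate 2.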
